A study of Mus musculus with 18 samples.

Results

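A set of 44 genes of the G1/S transition and of DNA replication was followed over 18 microarrays of mouse TKO cells, a line that the labels describe as telomere dysfunctional. The 44 genes were taken from a fixed list of symbols, by name and not by a cut on measured values. The list was chosen with earlier results of these data known. It makes up 44 of the 18194 genes read by the array. Each gene was read by its brightest probe set. All 44 passed the filter on dim genes, which kept 10916 genes, with gene means from 5.93 to 11.42 on the log2 scale against 4.74 for the dimmest gene kept. By role they were 11 genes of origin licensing, 7 of helicase activation, 8 of the polymerases and primase, 6 of the sliding clamp and its loader, 3 of strand processing, 3 of nucleotide supply, 2 cyclins E and 4 of histone supply and DNA methylation.

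The 6 groups held 3 arrays each. TKO cells that express p53ER, in which p53 is joined to an estrogen receptor part that keeps it inactive until 4-hydroxytamoxifen (4-OHT) binds, were sampled at 0 h, after 4 h in vehicle and after 4 h in 100 nM 4-OHT. Uninfected TKO cells, without the fusion, were sampled at the same 3 points. Infected cells lacking p53ER were not among the groups, so p53ER and infection cannot be told apart. What the vehicle was, which promoter drives the fusion, whether the infected cells are a pool or a clone and whether the replicates were separate cultures are not given in the sources used here. All p-values therefore rest on array-to-array spread, part or all of which may be technical.

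Replication origins are licensed in G1, when the origin recognition complex, CDC6 and CDT1 load the MCM helicase onto DNA. Cyclin E and CDC7 kinase then activate the helicase with CDC45 and the GINS complex, and DNA polymerases copy the strands while held by the ring-shaped clamp PCNA, which the RFC complex loads. Transcription of many of these genes peaks at the G1/S transition under E2F factors, and p53 can lower it through the cyclin-dependent kinase inhibitor p21 (Cdkn1a), which keeps E2F repressed. In RNA from whole cultures, fewer cells in S phase and less of a transcript per cell cannot be told apart.

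RefSeq promoter windows (mouse build GRCm38.p6, 250 bases before to 50 after a gene's start) were at hand for 36 of the 44 genes, and not for Ccne2, Gins1, Gins2, Gins4, Mcm4, Pole, Prim2 or Rfc2. They were searched on both strands for 4 words of the E2F element, TTTGGCGC, TTTCCCGC, TTTGCCGC and TTTCGCGC, which can overlap one another and also count in reverse complement. A word was present in 15 of the 36 genes (41.7%), against 2.6% of all 27025 genes with a window and 4.9% of the tested genes with one. CCAAT was present in 61.1% of the 36 genes, in 41.1% of all genes with a window and in 42.8% of the tested genes with one. For TTTGAA, the CHR element of late cell cycle genes, these shares were 19.4%, 20.2% and 14.1%. Such a match is a description of the letters and no evidence that a factor is bound. The stretches of 10 genes are shown so that the element can be read beside the values of the same genes below; each lies upstream of the start, is written 5′ to 3′ along the gene's strand, and has the E2F words in capitals.
Cdc6, chr11:98907993-98908040, plus strand: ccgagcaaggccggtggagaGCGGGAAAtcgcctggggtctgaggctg
Orc1, chr4:108579407-108579453, plus strand: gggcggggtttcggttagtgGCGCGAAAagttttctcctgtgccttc
Mcm5, chr8:75109336-75109387, plus strand: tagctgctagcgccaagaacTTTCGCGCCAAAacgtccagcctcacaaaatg
Mcm6, chr1:128359725-128359835, minus strand: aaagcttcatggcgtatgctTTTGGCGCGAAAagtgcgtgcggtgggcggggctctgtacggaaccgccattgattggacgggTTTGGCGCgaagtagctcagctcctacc
Mcm7, chr5:138172021-138172068, minus strand: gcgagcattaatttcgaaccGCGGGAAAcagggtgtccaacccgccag
Gins3, chr8:95633498-95633545, plus strand: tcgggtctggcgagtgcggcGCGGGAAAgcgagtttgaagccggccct
Rfc3, chr5:151651209-151651238, minus strand: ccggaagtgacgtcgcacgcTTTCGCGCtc
Pola1, chrX:93632266-93632313, minus strand: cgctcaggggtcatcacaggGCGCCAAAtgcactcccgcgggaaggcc
Uhrf1, chr17:56304108-56304155, plus strand: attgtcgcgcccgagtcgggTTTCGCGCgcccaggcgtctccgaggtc
Dnmt1, chr9:20952815-20952862, minus strand: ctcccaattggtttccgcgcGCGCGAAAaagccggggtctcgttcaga

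Some array properties did not follow the groups. The 2% trimmed mean signal ran from 47.5 to 148 before scaling, with the lowest values, 47.5 to 50.9, on replicate 3 of the uninfected groups. The Gapdh 3′/5′ ratio was 0.86 to 0.95 on the replicate 3 arrays and 0.78 to 0.84 on the others. A set of 3 arrays, uninfected 0 h replicate 2, p53ER vehicle replicate 1 and p53ER 0 h replicate 3, lay apart from the rest, as was seen only after the values were known, and results that rest on them are given with and without them. As a check of p53ER, Mdm2, a p53 target, stood at 10.21, 10.09 and 11.26 in p53ER cells with 4-OHT and at 6.77, 7.30 and 8.73 with vehicle, which is 2.92 higher on the log2 scale (limma adjusted p = 0.0329). Of the cell type markers, all 8 mesenchymal genes were bright enough to be tested, against 3 of 6 epithelial, 3 of 5 blood and 1 of 4 endothelial genes. The summed mesenchymal signal was 28360 to 51270 on the single arrays, while the epithelial, blood and endothelial sums stayed at or below 271.5.

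Across the 6 groups the replication genes had their lowest medians in p53ER cells with 4-OHT. Each gene's log2 signal was set against its own mean over the 18 arrays, and the median over the 44 genes was taken for each array. These medians were -0.29, -0.21 and -0.30 in p53ER cells with 4-OHT, 0.06, -0.06 and -0.24 with vehicle and -0.04, 0.05 and -0.05 at 0 h. In uninfected cells they were -0.10, 0.05 and 0.32 with 4-OHT, -0.07, 0.10 and 0.35 with vehicle and 0.00, 0.23 and 0.34 at 0 h. The 4-OHT arrays of p53ER cells overlapped only with the vehicle array of replicate 3 of the same cells, and the highest values were those of replicate 3 in uninfected cells. Over all tested genes the medians of the single arrays stayed between -0.01 and 0.11.

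**Figure D1:**
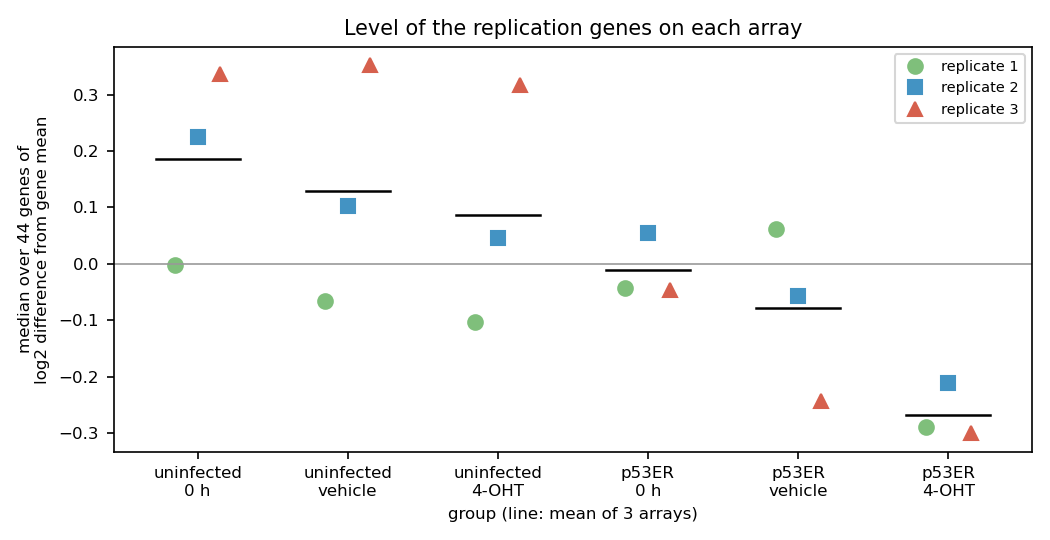
Median over the 44 replication genes of the log2 difference from each gene's own mean over 18 arrays (vertical axis), for each array of the 6 groups (horizontal axis), with the replicate number as colour and shape and the mean of 3 arrays as a line. The 3 arrays of p53ER cells with 4-OHT lie between -0.30 and -0.21, and replicate 3 of the uninfected groups lies highest, between 0.32 and 0.35.

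**Figure D2:**
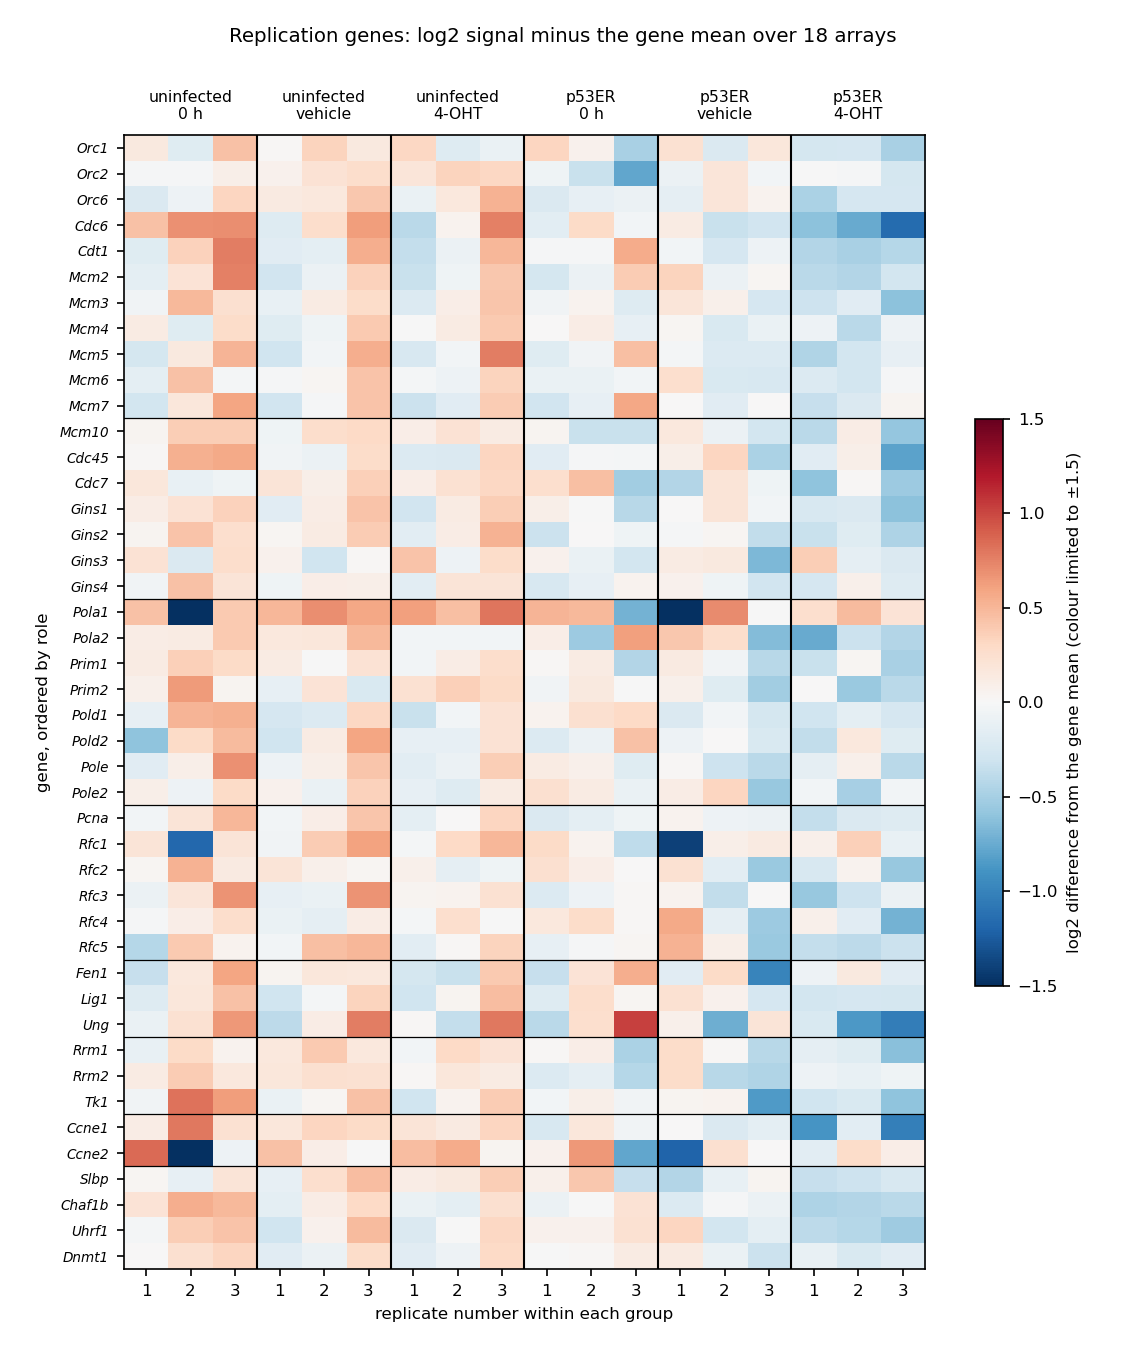
Log2 signal of each of the 44 replication genes (rows, ordered by role) on each of the 18 arrays (columns, by group and replicate number), minus the gene's mean over the arrays; colours are limited to 1.5 on either side of 0. Blue is most common in the p53ER 4-OHT columns, red in replicate 3 of the uninfected groups, and Pola1, Rfc1 and Ccne2 have dark blue cells on single arrays.

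The main comparison asked which replication genes differ 4 h after p53ER is switched on, by setting 4-OHT against vehicle in p53ER cells. The median log2 change of the 44 genes was -0.18, against -0.01 over all tested genes, and 37 of the 44 changes were below 0, against 51.9% of all genes. No replication gene passed limma's test with Benjamini-Hochberg adjustment over all genes (adjusted p = 0.998 for each); 2 of 10916 genes did (0.0183%). At an unadjusted p under 0.05 there were 2 of the 44, Cdc6 and Ccne1, both lower, against 1.29% of all genes in that direction. With the replicate number as a block there were 6 of the 44 and 535 of 10916 genes, and again none of the 44 passed (lowest limma adjusted p = 0.862). For 9 of the 44 the 4-OHT arrays lay wholly below the vehicle arrays and for 0 wholly above, against 3.98% and 3.39% of all genes. With 3 arrays against 3, the smallest exact permutation p is 0.1.

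Cdc6, the loader of the MCM helicase, stood at 6.45, 6.30 and 5.91 in p53ER cells with 4-OHT and at 7.18, 6.72 and 6.78 with vehicle. All 3 arrays with 4-OHT were below all 3 with vehicle, and replicate 3 was the lowest. The means were 6.22 ± 0.28 and 6.89 ± 0.25 (SD, n = 3), and the log2 change was -0.67 (SE 0.27; limma adjusted p = 0.998). Ccne1, which encodes cyclin E1, the partner of CDK2 at the G1/S transition, read 7.38, 8.10 and 7.23 with 4-OHT and 8.26, 8.05 and 8.11 with vehicle. Replicates 1 and 3 with 4-OHT were below every vehicle array and replicate 2 was not, so the groups overlapped. On the log2 scale Ccne1 differed by -0.57 (SE 0.21; limma adjusted p = 0.998), and the other probe set of Ccne1 gave -0.56.

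Pcna, the sliding clamp, read 11.06, 11.21 and 11.23 with 4-OHT and 11.47, 11.34 and 11.33 with vehicle. The groups did not overlap, but the log2 change was small, -0.21 (SE 0.16; limma adjusted p = 0.998). Cdt1, the partner of CDC6 in licensing, was at 9.14, 9.10 and 9.15 with 4-OHT and at 9.53, 9.33 and 9.5 with vehicle, again without overlap, and differed by -0.32 (SE 0.26; limma adjusted p = 0.998), or by -0.041 with the mean of all probe sets. With the block and without the 3 arrays lying apart, the changes of Cdc6, Pcna and Cdt1 were -0.41, -0.081 and -0.16.

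Ccne2, which encodes cyclin E2, did not follow Ccne1 in its values: they were 6.06, 6.49 and 6.31 with 4-OHT and 5.01, 6.45 and 6.22 with vehicle. The vehicle array of replicate 1, which is among the 3 lying apart, was far below the others, and the log2 change of 0.39 (SE 0.50; limma adjusted p = 0.998) turned to -0.050 without it. Pola1, the catalytic subunit of DNA polymerase alpha, had the largest change of the 44 for the same array: 6.64, 6.86 and 6.60 with 4-OHT against 3.99, 7.09 and 6.38 with vehicle. It differed by 0.88 (SE 0.93; limma adjusted p = 0.998), and by -0.039 without that array.

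By role, the 11 licensing genes lay furthest down, with a median log2 change of -0.32 and all 11 below 0. Of them 5 were without overlap between the groups (Cdc6, Cdt1, Mcm2, Orc1 and Orc6). Over all genes 51.9% were below 0 and 3.98% wholly lower. Mcm2, a subunit of the helicase, changed by -0.47 (SE 0.25) and its partner subunit Mcm7 by -0.12 (SE 0.26). The 7 genes of helicase activation had a median of -0.22, with 6 below 0; Gins1, of the GINS complex, was at -0.41 without overlap, while Gins3 was at 0.14. The 4 genes of histone supply and DNA methylation were all below 0, with a median of -0.23. Among them Uhrf1, which recruits the maintenance methyltransferase DNMT1 to new DNA, changed by -0.42 and Chaf1b, a subunit of the histone chaperone CAF-1, by -0.33, both without overlap. The polymerases and primase had a median of -0.08, with 6 of 8 below 0, and the clamp and its loader one of -0.22, with 5 of 6 below 0. For the 3 genes of strand processing it was -0.28 and for the 3 of nucleotide supply -0.13, each with 2 below 0. The 2 cyclins E had a median of -0.09, with 1 below 0. None of these genes passed the test.

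**Figure D3:**
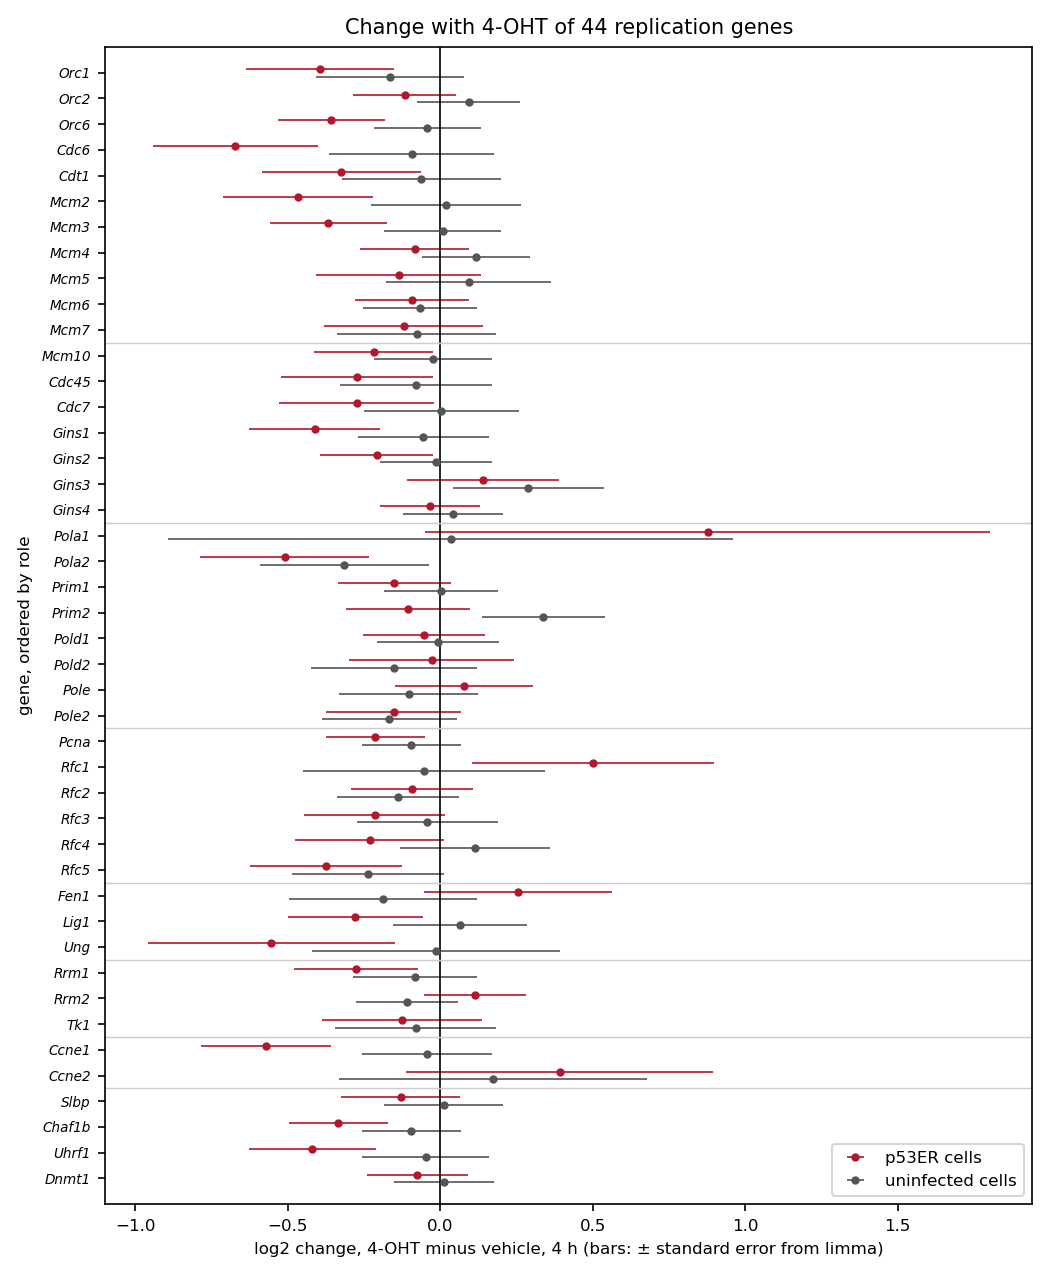
Log2 change with 4-OHT against vehicle at 4 h (horizontal axis) of the 44 replication genes (vertical axis, ordered by role), in p53ER cells (red) and in uninfected cells (grey), 3 arrays a group; bars are the standard error from limma. In p53ER cells 37 points lie below 0, and Pola1 has the largest change, 0.88, and the widest bar.

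Taken pair by pair of equal replicate number, the median of the 44 genes was -0.34 for replicate 1, -0.16 for replicate 2 and -0.08 for replicate 3. In that order 37, 33 and 26 of the 44 were below 0, against 53.5%, 52.7% and 51.4% of all genes. Below 0 in all 3 pairs were 17 genes, against 16.1% of all genes. The vehicle array of replicate 3 had the lowest replication genes of the vehicle arrays, and beside that the highest Mdm2, at 8.73, and the highest Cdkn1a, at 9.37 against 7.34 and 7.89. Replicate 3 had the highest Mdm2 and Cdkn1a in every group, also in uninfected cells, where its replication genes had the highest medians. In uninfected cells with 4-OHT, Mdm2 read 7.06, 7.44 and 7.62 and Cdkn1a 7.09, 7.19 and 7.80. The part of the replicate 3 vehicle array in the result was not tested. Without it the median log2 change of the 44 genes was -0.29, without the vehicle array of replicate 1 it was -0.11, and with the replicate number as a block and without the 3 arrays lying apart it was -0.049.

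Uninfected cells show what 4-OHT did without the fusion. There the median of the 44 genes was -0.04, with 28 below 0, against 50.8% of all genes, and none passed limma's test; 0 of 10916 genes did (0%), and 0 of the 44 had an unadjusted p under 0.05, against 0.77% of all genes. For 1 of the 44 the 4-OHT arrays lay wholly below the vehicle arrays and for 1 wholly above, against 1.91% and 2.38% of all genes. The largest changes were those of both accessory subunits of the polymerase alpha and primase complex. Prim2, the large primase subunit, read 7.96, 8.09 and 8.02 with 4-OHT and 7.62, 7.94 and 7.51 with vehicle, without overlap, and differed by 0.34 on the log2 scale (SE 0.20; limma adjusted p = 1). Pola2, the second subunit of polymerase alpha, read 7.14, 7.14 and 7.13 with 4-OHT and 7.34, 7.34 and 7.67 with vehicle, also without overlap, and differed by -0.32 (SE 0.28; limma adjusted p = 1). With the mean of all probe sets in place of the brightest, these became -0.11 and 0.24, and Pola2 was -0.21 without vehicle replicate 3. The median of the 44 genes turned to 0.068 without 4-OHT replicate 1 and to 0.078 without vehicle replicate 3, and was -0.012 without 4-OHT replicate 2, -0.16 without 4-OHT replicate 3 and -0.13 without vehicle replicate 1.

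The difference of the 4-OHT change between the cell types was tested as an interaction term. Its median over the 44 genes was -0.19, against 0.00 over all genes, with 35 of 44 below 0, against 50.5% of all genes. No replication gene passed limma's test (adjusted p = 1), 0 of 10916 genes did (0%), and 0 of the 44 had an unadjusted p under 0.05, against 1.56% of all genes. For Cdc6 the difference was -0.58 (SE 0.38), and -0.27 without the uninfected 4-OHT array of replicate 3 or -0.36 without the uninfected vehicle array of replicate 1, and for Pola1 0.84 (SE 1.31), the latter turning to -0.073 without the p53ER vehicle array of replicate 1. The median was -0.070 without the 4-OHT array of replicate 3 in uninfected cells, -0.089 without the p53ER vehicle array of replicate 1 and -0.052 with the block and without the 3 arrays lying apart.

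Against the 0 h arrays in place of vehicle, the 4-OHT arrays of p53ER cells gave a median log2 change of -0.24 over the 44 genes, with 38 below 0, against 55.1% of all genes. Since both comparisons use the same 4-OHT arrays, they are not independent. No replication gene passed limma's test (lowest adjusted p = 0.851), while 2 of 10916 genes did (0.0183%). An unadjusted p under 0.05 was reached by 7, all lower, against 2.04% of all genes in that direction: Ccne1, Chaf1b, Uhrf1, Cdc6, Cdt1, Pold1 and Ung. Without the 4-OHT array of replicate 3 there were 3, and the count over all genes in that fit is not given here. In all, 11 of the 44 lay wholly below the 0 h arrays and 1 wholly above, against 6.29% and 4.56% of all genes.

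Ung, the uracil DNA glycosylase that removes uracil from new DNA, had the largest change. It read 5.89, 5.25 and 5.08 with 4-OHT and 5.71, 6.37 and 7.14 at 0 h. The groups overlapped, since replicate 1 with 4-OHT exceeded replicate 1 at 0 h, and the log2 change was -1.0 (SE 0.41; limma adjusted p = 0.999). Without the 0 h array of replicate 3 the change of Ung was -0.63, and without replicate 3 of every group -0.47. Cdc6 read 6.90, 7.35 and 7.02 at 0 h, above all 3 of its 4-OHT arrays, for a change of -0.87 (SE 0.27; limma adjusted p = 0.851).

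Sampling at 4 h was also set against 0 h. From 0 h to vehicle in p53ER cells the median of the 44 genes was -0.10, with 29 below 0, against 55.4% of all genes; none passed limma's test, 0 of 10916 genes did (0%), and 1 of the 44 had an unadjusted p under 0.05, Orc2, a subunit of the origin recognition complex, at 0.41, against 1.18% of all genes that were higher at that p. The largest changes were those of Pola1, -0.66 (SE 0.93), with 6.90, 6.87 and 5.68 at 0 h against the vehicle values above, and of Ung, -0.44 (SE 0.41), with 6.20, 5.38 and 6.31 in vehicle. For both genes the groups overlapped. Ung was at -0.078 without the 0 h array of replicate 3, at -0.15 without the vehicle array of replicate 2 and at -0.79 without the 0 h array of replicate 1. Pola1 was at -1.07 without the 0 h array of replicate 3 and further below 0 without the vehicle array of replicate 2, and at -1.35 without replicate 3 of every group. Without replicate 3 of every group the median was 0.016, without that of p53ER vehicle alone it was 0.0040, without p53ER 0 h replicate 2 it was -0.030, and Pola1 turned to 0.25 without the vehicle array of replicate 1. In uninfected cells the mean of both 4 h groups against 0 h gave a median of -0.10, with 32 below 0, against 58.9% of all genes, and ran from -0.22 without 0 h replicate 1 to 0.0046 without 0 h replicate 3; none passed limma's test, 0 of 10916 genes did (0%), and 1 had an unadjusted p under 0.05, Chaf1b at -0.37, against 4.5% of all genes that were lower at that p. Pola1 at 1.66 (SE 0.80) and Rfc1, the large subunit of the clamp loader, at 0.55 (SE 0.34) changed most, and both have a low 0 h array, without which they were 0.19 and 0.090. Pola1 in uninfected cells read 6.83, 2.40 and 6.79 at 0 h, 6.89, 7.09 and 6.97 with vehicle and 7.01, 6.84 and 7.19 with 4-OHT. Rfc1 read 7.58, 6.22 and 7.59 at 0 h, 7.34, 7.77 and 7.99 with vehicle and 7.36, 7.69 and 7.89 with 4-OHT. The low value is replicate 2 at 0 h for both, one of the 3 arrays lying apart; for Pola1 all 4 h arrays were above all 0 h arrays, and for Rfc1 the groups overlapped.

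Between the cell types the replication genes lay lower in value in p53ER cells, with and without 4-OHT, but no single gene passed the test. In untreated cells, 0 h and vehicle averaged, the median difference of p53ER minus uninfected was -0.19 over the 44 genes, with 43 of 44 below 0, against 50.5% of all genes. None passed limma's test (adjusted p = 0.999), 2 of 10916 genes did (0.0183%), and 10 of the 44 had an unadjusted p under 0.05, all lower, against 1.63% of all genes in that direction. The count of 10 was 6 without p53ER 0 h replicate 1 or p53ER vehicle replicate 3. It was 5 without uninfected 0 h replicate 2 or 3, 3 without uninfected vehicle replicate 3 and 1 without replicate 3 of every group. The counts over all genes in these fits are not given here, so no fall is a result about the replication genes. Rrm2, a subunit of the ribonucleotide reductase that makes deoxynucleotides, read 10.32, 10.38 and 10.09 at 0 h and 10.79, 10.10 and 10.07 with vehicle in p53ER cells. In uninfected cells it read 10.64, 10.90 and 10.68 at 0 h and 10.69, 10.76 and 10.75 with vehicle. Of the p53ER arrays, the vehicle array of replicate 1 alone reached the uninfected range, and the difference was -0.45 (SE 0.12; limma adjusted p = 0.999). Rrm2 was the only one of the 44 to pass with the block and without the 3 arrays lying apart. The calls over all genes in that setting are not given here, so this does not mark out Rrm2. Cdc6 in uninfected cells read 7.5, 7.75 and 7.75 at 0 h and 6.86, 7.32 and 7.69 with vehicle, overlapping with the untreated p53ER arrays, for a difference of -0.49 (SE 0.19; limma adjusted p = 0.999).

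With 4-OHT in both cell types the difference was larger in value. The median over the 44 genes was -0.37, against 0.00 over all genes, with 43 of 44 below 0, Fen1 at 0.03 being the exception, against 49.6% of all genes. None passed limma's test (lowest adjusted p = 0.278, for Ccne1), and 8 of 10916 genes did (0.0733%). An unadjusted p under 0.05 was reached by 14 of the 44, all lower, against 1.57% of all genes in that direction, and 19 lay wholly below the uninfected arrays, with 0 wholly above, against 5.73% and 5.49%. With the replicate number as a block the lowest adjusted p was 0.0892, again for Ccne1. The count of 14 was 21 with the block, where 679 of 10916 genes had such a p, against 419 without the block. It was 3 without uninfected 4-OHT replicate 3, 6 without p53ER 4-OHT replicate 3 and 8 without uninfected 4-OHT replicate 2. Without replicate 3 of every group it was 5. The counts over all genes in the fits that left out arrays are not given here, so no fall is a result about the replication genes.

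Cdc6 with 4-OHT read 6.66, 7.12 and 7.82 in uninfected cells, all above the 3 arrays of p53ER cells, which ranged from 5.91 to 6.45. The difference was -0.98 (SE 0.27; limma adjusted p = 0.617), the largest of the 44, and -0.51 without replicate 3 of every group. Ccne1 read 8.46, 8.39 and 8.58 in uninfected cells with 4-OHT, all above the p53ER arrays, of which replicate 2 came closest at 8.10. The difference was -0.91 (SE 0.21; limma adjusted p = 0.278). It passed, at an adjusted p of 0.0338, without the 4-OHT array of replicate 2 in p53ER cells, and at 0.029 with the block and without the 3 arrays lying apart. By role the medians were -0.38 for licensing, -0.43 for helicase activation, -0.26 for the polymerases and primase, -0.33 for the clamp and its loader, -0.33 for strand processing, -0.42 for nucleotide supply, -0.59 for the 2 cyclins E and -0.46 for histone supply and DNA methylation.

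The difference between the cell types was not of the same size in each replicate. With 4-OHT the median over the 44 genes was -0.18 for replicate 1, -0.28 for replicate 2 and -0.65 for replicate 3. In that order 33, 37 and 43 of the 44 were below 0, against 48.3%, 49.6% and 51.8% of all genes. A total of 29 were below 0 in all 3, against 16.3% of all genes. In untreated cells the medians were 0.08, -0.21 and -0.47. There 18, 33 and 44 genes were below 0, against 48.2%, 52.7% and 49.6% of all genes, and 11 were below 0 in all 3, against 9.26%. Without replicate 3 of every group the median was -0.22 with 4-OHT and -0.045 in untreated cells. The lower level of the replication genes in untreated p53ER cells was thus largest in replicate 3 and smaller in replicate 2, where 33 of the 44 were below 0. It was absent from replicate 1, whose median was 0.08.

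The replicate number itself was compared over all groups, with the group as a covariate. What the numbers stand for is not given in the sources used here. Replicate 3 against the mean of replicates 1 and 2 had a median of 0.10 over the 44 genes, with 16 below 0, against 50.2% of all genes. Of the 44, 7 passed limma's test, all higher in replicate 3: Mcm2, Mcm5, Mcm7, Cdt1, Orc6, Pcna and Rfc3. Over all genes 2312 of 10916 passed (21.2%), of which those higher in replicate 3 made up 10.6% of all genes, so a count of 7 of 44 is near the background. Of the 7, 5 are genes of origin licensing, of which 11 were tested. Its median was 0.0074 without uninfected 4-OHT replicate 3 and 0.18 without p53ER vehicle replicate 3. Replicate 2 against replicate 1 gave a median of 0.11, with 11 below 0, against 50.1% of all genes. There 0 of 44 passed limma's test, 1 of 10916 genes did (0.00916%), and 4 of 44 were higher at an unadjusted p under 0.05, against 3.89% of all genes. Pold2, a subunit of DNA polymerase delta, went from 7.99, 8.11 and 7.83 in replicate 1 of p53ER cells at 0 h, with vehicle and with 4-OHT to 8.10, 8.20 and 8.35 in replicate 2, and from 7.58, 7.89 and 8.06 to 8.48, 8.32 and 8.06 in uninfected cells. Replicate 2 was above replicate 1 in 5 of 6 groups and level with it in the other, and the difference was 0.34 (SE 0.15; limma adjusted p = 0.607). Gins3 went from 6.31, 6.38 and 6.62 to 6.15, 6.40 and 6.12 in p53ER cells and from 6.47, 6.31 and 6.68 to 6.04, 5.95 and 6.18 in uninfected cells, lower in 5 of 6 groups, with a difference of -0.32 (SE 0.16; limma adjusted p = 0.652).

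Mcm7 read 10.60, 10.77 and 11.47 at 0 h, 10.89, 10.72 and 10.90 with vehicle and 10.55, 10.67 and 10.93 with 4-OHT in p53ER cells, the third value being replicate 3. In uninfected cells it read 10.61, 11.06 and 11.48 at 0 h, 10.61, 10.87 and 11.31 with vehicle and 10.57, 10.72 and 11.27 with 4-OHT. Replicate 3 was the highest in all 6 groups, by very little in p53ER cells with vehicle. The difference was 0.51 (SE 0.09; limma adjusted p = 0.000819), and the 3 other probe sets of Mcm7 gave 0.42 to 0.59.

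Mcm5, another subunit of the helicase, read 9.91, 10.04 and 10.55 at 0 h, 10.07, 9.89 and 9.89 with vehicle and 9.65, 9.82 and 9.97 with 4-OHT in p53ER cells. In uninfected cells it read 9.83, 10.24 and 10.61 at 0 h, 9.80, 10.05 and 10.65 with vehicle and 9.86, 10.06 and 10.86 with 4-OHT. Replicate 3 was the highest in 5 of 6 groups, p53ER cells with vehicle being the exception. The difference was 0.49 (SE 0.11; limma adjusted p = 0.00444).

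Cdt1 in uninfected cells read 9.39, 9.92 and 10.34 at 0 h, 9.40, 9.43 and 10.13 with vehicle and 9.21, 9.48 and 10.07 with 4-OHT, and in p53ER cells at 0 h 9.56, 9.56 and 10.13. Replicate 3 was again highest outside p53ER cells with vehicle, and the difference was 0.47 (SE 0.11; limma adjusted p = 0.00615). Mcm2 had a difference of 0.41 (SE 0.11; limma adjusted p = 0.0137) with replicate 3 on top in uninfected cells, where it read 9.19, 9.54 and 10.09 at 0 h, 9.04, 9.24 and 9.68 with vehicle and 9.0, 9.27 and 9.74 with 4-OHT. In p53ER cells Mcm2 read 9.07, 9.25 and 9.71 at 0 h, 9.66, 9.24 and 9.37 with vehicle and 8.93, 8.89 and 9.05 with 4-OHT, replicate 3 being below replicate 1 with vehicle. A dimmer probe set of Mcm2 gave -0.29 (SE 0.20), the opposite sign, and with the mean of all probe sets the calls of Cdt1, Mcm2 and Mcm5 were lost. Of the 44, 3 passed without replicate 3 of uninfected cells at 0 h (Cdt1, Mcm5 and Mcm7). Without replicate 3 of uninfected cells with vehicle 4 passed (the same 3 and Mcm2). The calls over all genes in these fits are not given here.

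The replicate 3 difference went apart between the cell types. In uninfected cells its median over the 44 genes was 0.33, with 6 below 0, against 49.1% of all genes. In p53ER cells it was -0.18, with 33 below 0, against 50.1% of all genes. Over all genes the medians were 0.0092 and -0.00060. Both comparisons within a cell type were added after the values had been seen. In uninfected cells 15 of the 44 passed limma's test, all higher, where 1476 of 10916 genes did (13.5%), or 6.54% counting higher genes only. They were Cdc6, Cdt1, Mcm2, Mcm4, Mcm5, Mcm7 and Orc6 of licensing, Pold1, Pold2 and Pole of the polymerases, Pcna and Rfc3, the ligase Lig1, and Uhrf1 and Dnmt1. The largest of these 15 were Mcm5 at 0.73 (SE 0.12; limma adjusted p = 0.00112), Cdt1 at 0.71 (SE 0.11), Mcm2 at 0.62 (SE 0.12) and Mcm7 at 0.62 (SE 0.11). With the mean of all probe sets 11 of the 44 passed, and Cdt1, Mcm2, Mcm4 and Dnmt1 lost their calls. In p53ER cells 4 passed, where 1635 of 10916 genes did (15%), 7.37% of all genes higher and 7.61% lower.

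Of these 4, Mcm7 was higher, by 0.40 (SE 0.11; limma adjusted p = 0.0292), and 3 were lower. Rrm1, the large subunit of ribonucleotide reductase, read 9.93, 10.01 and 9.44 at 0 h, 10.19, 9.94 and 9.51 with vehicle and 9.78, 9.74 and 9.29 with 4-OHT. Replicate 3 was lowest in each p53ER group, and the difference was -0.52 (SE 0.09; limma adjusted p = 0.00121). Prim1, the catalytic primase subunit, read 8.76, 8.86 and 8.30 at 0 h, 8.88, 8.69 and 8.33 with vehicle and 8.41, 8.77 and 8.26 with 4-OHT, again lowest in replicate 3 each time, for a difference of -0.44 (SE 0.11; limma adjusted p = 0.0143). Rfc4, a small subunit of the clamp loader, read 7.13, 7.25 and 6.98, then 7.54, 6.83 and 6.42, then 7.04, 6.80 and 6.25 in the same order of groups, also lowest in replicate 3, for -0.55 (SE 0.16; limma adjusted p = 0.0307).

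The count of 15 in uninfected cells fell to 7 without replicate 3 of any of the 3 uninfected groups, to 9 without vehicle replicate 1 and to 8 without vehicle replicate 2 of those cells, and was 24 without the 3 arrays lying apart. The count of 4 in p53ER cells fell to 2 without the 4-OHT array of replicate 1 or of replicate 3 of those cells, and was 8 without replicate 2 of uninfected cells at 0 h and 7 without the 3 arrays lying apart. The calls over all genes in these fits are not given here, so no rise or fall is a result about the replication genes. Of the 4, Rrm1 passed in all 18 fits that left out 1 array, Prim1 did not without replicate 3 at 0 h or with vehicle, and Mcm7 and Rfc4 failed in 6 each. With the mean of all probe sets Rrm1 kept its call, while Mcm7, Prim1 and Rfc4 lost theirs. Rfc4 also lost it with quantile normalization, Mcm7 with another prior and Prim1 without the 3 arrays lying apart. The median in p53ER cells was -0.072 without the vehicle array of replicate 3 and -0.11 without that of replicate 1.

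Group by group, the median of replicate 3 minus the mean of replicates 1 and 2 over the 44 genes was 0.26 at 0 h, 0.34 with vehicle and 0.37 with 4-OHT in uninfected cells. In p53ER cells it was -0.034 at 0 h, -0.18 with vehicle and -0.13 with 4-OHT. In uninfected cells 36, 38 and 37 of the 44 genes were above 0 in that order, against 54%, 48.6% and 50.4% of all genes. In p53ER cells 20, 12 and 17 were, against 52.9%, 49.2% and 48%. Thus each uninfected median was above 0 and each p53ER median below it, but at 0 h in p53ER cells only slightly. Replicate 3 of that group is among the arrays lying apart. A total of 8 genes were higher in replicate 3 of every uninfected group and lower in replicate 3 of every p53ER group: Orc2, Cdc6, Mcm3, Gins1, Gins3, Prim1, Pole and Tk1. No gene had the opposite pattern. The share of all tested genes with either pattern is not given here, so these counts do not mark out the replication genes.

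The difference between the cell types was tested directly. All 44 genes had a more negative replicate 3 difference in p53ER cells, with a median of -0.44, against 51.2% of all genes below 0 and a median of -0.01. An unadjusted p under 0.05 was reached by 23 of the 44, all lower in p53ER cells, against 10.8% of all genes in either direction and 5.19% in this one. After adjustment over all genes, 1 of the 44 passed limma's test, Pole, while 97 of 10916 genes did (0.889%), 0.412% in the same direction. Without 1 array at a time, 42 to 44 of the 44 stayed below 0.

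Pole, the catalytic subunit of DNA polymerase epsilon, which copies the leading strand, read 7.27, 7.52 and 8.12 at 0 h, 7.36, 7.53 and 7.86 with vehicle and 7.28, 7.35 and 7.81 with 4-OHT in uninfected cells. In p53ER cells it read 7.56, 7.52 and 7.26 at 0 h, 7.46, 7.12 and 7.03 with vehicle and 7.30, 7.52 and 7.03 with 4-OHT. Replicate 3 was the highest array of each uninfected group and the lowest of each p53ER group. The differences were 0.55 (SE 0.12) in uninfected and -0.30 (SE 0.12) in p53ER cells, and the difference between them was -0.85 (SE 0.17; limma adjusted p = 0.0268).

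This call was narrow. Pole stayed at or below -0.76 in all 18 fits that left out 1 array, but did not pass in 11 of them, with limma adjusted p up to 0.129. The 11 left out replicate 2 at 0 h, replicates 2 and 3 with 4-OHT or replicate 3 with vehicle of p53ER cells, or replicates 1 and 3 at 0 h, any replicate with 4-OHT or replicates 1 and 3 with vehicle of uninfected cells. More of the 44 passed without p53ER 0 h replicate 3 (4 genes), uninfected 0 h replicate 2 (3 genes) or p53ER 0 h replicate 1 (2 genes). The calls over all genes in these fits are not given here. Next after Pole by unadjusted p came Tk1, thymidine kinase of the salvage pathway, at -0.85 (SE 0.21; limma adjusted p = 0.0819).

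In replicate 3, cell type moves with other measured values: the trimmed mean signal was 47.5 to 50.9 in uninfected and 64.9 to 73.5 in p53ER cells, and the Gapdh 3′/5′ ratio 0.86 to 0.90 and 0.89 to 0.95. The mesenchymal markers also moved with replicate 3. All 8 were below 0 in uninfected cells, with a median of -0.77 and 5 past limma's threshold, and 5 of 8 in p53ER cells, with a median of -0.43 and 4 past it; over all groups 8 of 8 were below 0, with a median of -0.65 and 4 past it. Of the other markers over all groups, 1 of 3 epithelial genes (Epcam), 1 of 3 blood genes (Csf1r) and the only endothelial gene tested (Kdr) passed as lower, and 1 blood gene (Cd74) as higher. The difference of replicate 3 between the cell types called 0 of these markers. The part of these values in the pattern was not tested. The dimmer probe sets of the same genes, 37 probe sets of 27 genes, gave a difference below 0 in 34 of 37, with a median of -0.38.

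**Figure D4:**
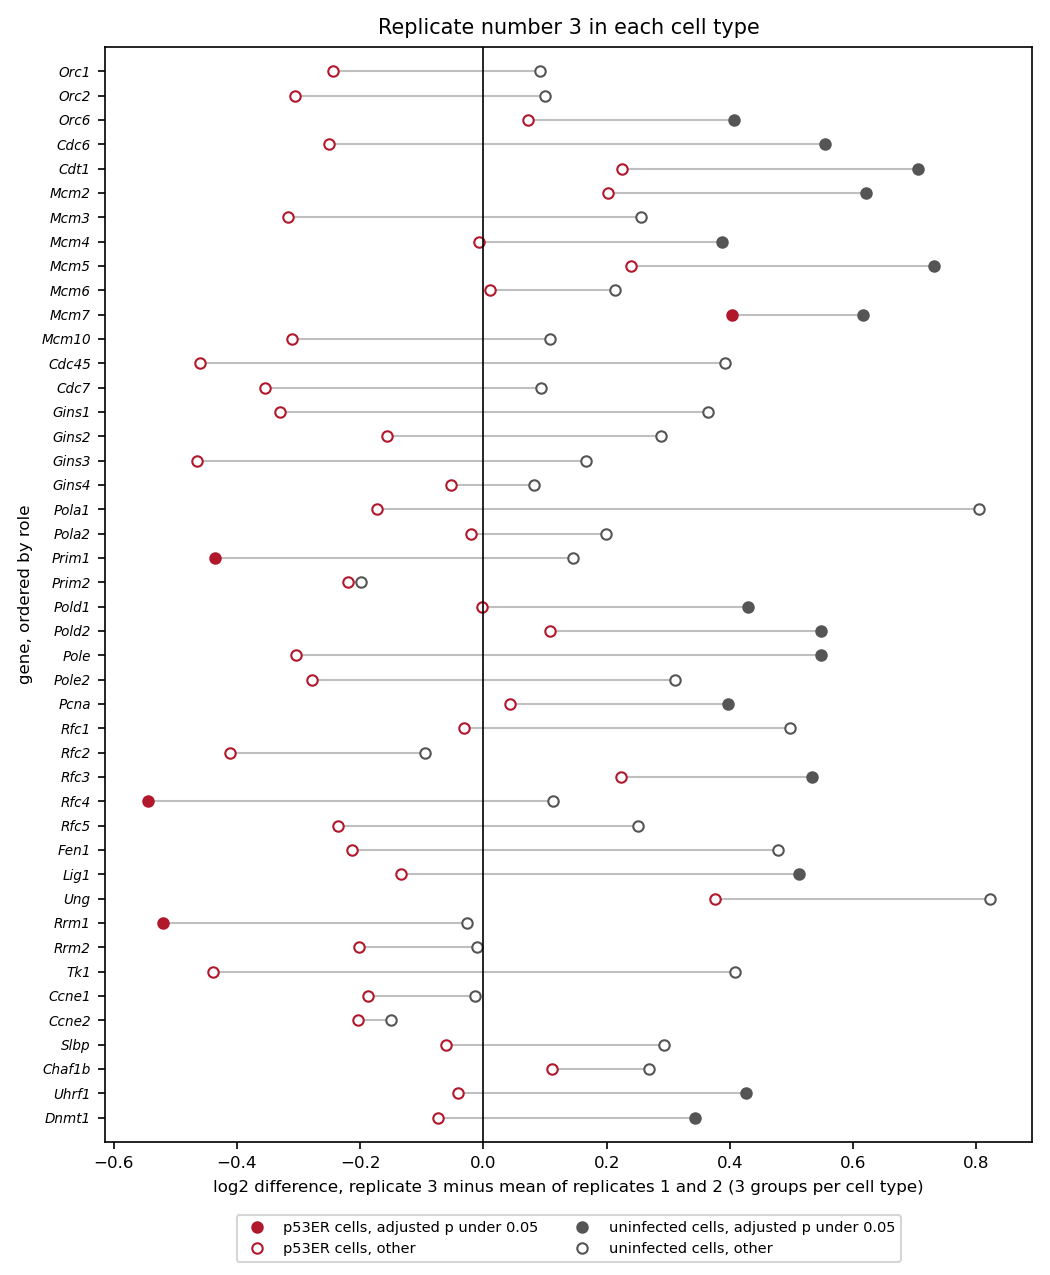
Log2 difference of replicate 3 from the mean of replicates 1 and 2 (horizontal axis) for the 44 replication genes (vertical axis, ordered by role), in p53ER cells (red) and uninfected cells (grey), over 3 groups each; filled points have a limma adjusted p under 0.05 within that cell type, and a line joins the 2 points of a gene. The red point lies left of the grey one for all 44 genes.

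On the 3 arrays lying apart, 21 of the 44 genes were outside the range of the other 15 arrays on at least 1, 6 below it and 15 above it. The share of all tested genes outside that range is not given here, so these counts do not mark out the 44. The arrays were also singled out only after the values were known. The same 3 genes, Pola1, Rfc1 and Ccne2, were below it on all 3. Each of the 3 was set against the mean of the other arrays of its group. The difference of Pola1 was -4.41 on uninfected 0 h replicate 2, -2.75 on p53ER vehicle replicate 1 and -1.2 on p53ER 0 h replicate 3. That of Rfc1 was -1.37, -1.51 and -0.55 and that of Ccne2 -1.98, -1.32 and -1.13 on the same arrays in that order. For these 3 genes all 3 arrays fell below every one of the other 15, whose values ran from 6.38 to 7.19 for Pola1. None of the other 41 did so on all 3: Mcm6, for example, which was above the other 15 on 1 array, differed by 0.52, 0.48 and 0.055. Polymerase alpha's second subunit Pola2 was at -0.13, 0.60 and 0.84, so the subunits of 1 enzyme went apart on these arrays.

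**Figure D5:**
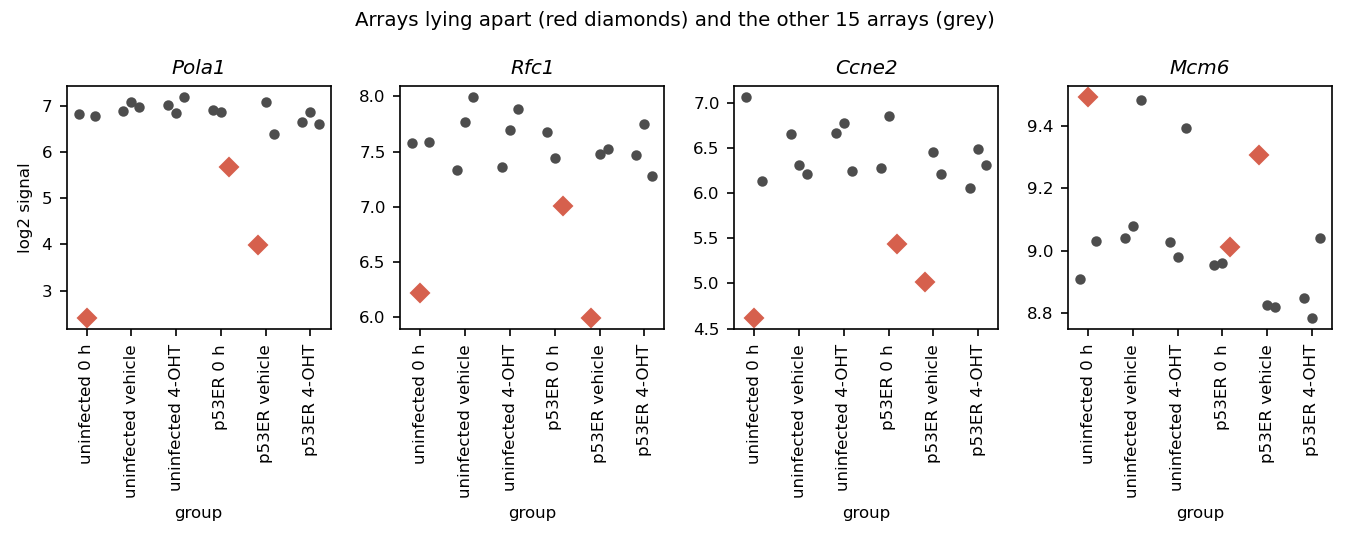
Log2 signal (vertical axis, a scale for each gene) of Pola1, Rfc1, Ccne2 and Mcm6 on each array by group (horizontal axis), with the 3 arrays lying apart as red diamonds and the other 15 arrays in grey. For Pola1, Rfc1 and Ccne2 the diamonds lie below all grey points, and for Mcm6 they do not.

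The medians of the genes with and without an E2F word lay close together with 4-OHT, in either order. For p53ER cells with 4-OHT against vehicle the median log2 change was -0.15 over the 15 genes with a word and -0.23 over the 21 without, and against 0 h it was -0.29 and -0.23. For p53ER minus uninfected cells with 4-OHT it was -0.33 and -0.42. For the difference of replicate 3 between the cell types it was -0.48 and -0.44. In uninfected cells replicate 3 was above replicates 1 and 2 by a median of 0.43 for the 15 genes, all above 0, and of 0.27 for the 21, with 18 above 0. These are descriptions of the 36 genes and were not tested. The word is in the windows of Cdc6 and of Mcm6, which were at -0.67 and -0.093 with 4-OHT in p53ER cells, and in neither that of Ccne1 nor that of Ung.

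Beyond the 44, a list of 41 other replication and S phase genes held 39 on the array and 37 tested. With 4-OHT against vehicle in p53ER cells their median log2 change was -0.11, with 22 below 0, against 51.9% of all genes, and 0 past limma's threshold, 0 of them at an unadjusted p under 0.05. Atad2, an E2F cofactor, and Hells, a chromatin remodeller, changed most, at 0.87 (SE 0.72) and 0.76 (SE 0.67). Both had low values on the vehicle array of replicate 1, 5.0 against 8.10 and 8.09 for Atad2 and 4.49 against 7.27 and 7.37 for Hells, and turned to -0.16 and -0.18 without it. For p53ER minus uninfected cells with 4-OHT the median was -0.31, with 32 of 37 below 0, against 49.6% of all genes. The replicate 3 comparison called 9 of the 37, of which 6 were higher and 3 lower, a count near the 21.2% of all genes. Dscc1 at 0.60 (SE 0.19) and Timeless at 0.48 (SE 0.12) were higher, and Ccna2, cyclin A2, at -0.59 (SE 0.19) and Asf1b at -0.55 (SE 0.17) were lower. Leaving out 1 array lost the call of Dscc1 in 12 of 18 fits, of Ccna2 in 12 and of Asf1b in 5, and that of Timeless without uninfected vehicle replicate 3. The difference of replicate 3 between the cell types was below 0 for 34 of the 37, against 51.2% of all genes, with a median of -0.46 and 1 past limma's threshold.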

How the data were processed

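Biotin-labelled RNA of 18 samples was read on Affymetrix arrays with 45101 probe sets. Deposited values are intensities from MAS5 (linear, not log2), per the submitters' processing notes, with no version or target stated. Arrays were brought to the same 2% trimmed mean, 82.7, before taking log2(signal + 4.13); 4.13 is 5% of 82.7 and shrinks changes of dim genes. Precision is limited by how many arrays there are.

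Of the probe sets, 34958 had 1 gene in the platform annotation, 932 several and 9211 none; 34754 were matched by Entrez ID to RefSeq GRCm38.p6. The brightest probe set stood for each of 18194 genes (33 of the 44 genes had more than 1), and the upper 60% by mean, 10916 genes, were tested.

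limma 3.58.1 (R 4.3.3; trended, robust prior) was fitted to 6 group means (12 residual degrees of freedom), to replicate number with group as covariate (10), and to replicate number within each cell type (8). P-values are two-sided, Benjamini-Hochberg adjusted over all genes, threshold 0.05. There were 11 comparisons, and 2 were added. Scripts were tested on simulated data. The members and lists were chosen with earlier results of these data known. All members could be named; array values are given for up to 4 members past the threshold per comparison, otherwise for the 2 largest changes, and in the main comparison also for Pcna, Cdc6, Ccne1, Ccne2 and Cdt1. Of the other replication genes, up to 4 past the threshold or the 2 largest changes are named.

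Deviations from group means correlated above 0.1 between arrays of equal number in every pair for 4-OHT against vehicle (r from 0.209 to 0.449 in p53ER and 0.306 to 0.618 in uninfected cells), for 4-OHT against 0 h in p53ER cells (0.271 to 0.467) and between the cell types with 4-OHT (0.174 to 0.466), but not in the others (lowest r -0.341). The alternatives were quantile normalization, no offset, a 20% offset (16.5), no filter, the upper 40%, the mean of all probe sets, another prior, array weights, the replicate block, only the 2 groups compared, and leaving out arrays.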

Additional observations from a re-analysis of the deposited data

Results flagged for a closer look

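The difference of replicate 3 from replicates 1 and 2 differed between the cell types. For Pole this was tested and passed, with -0.85 on the log2 scale for p53ER minus uninfected cells. For the median of the 44 genes the difference between the single groups was not tested: it was -0.034 at 0 h, -0.18 with vehicle and -0.13 with 4-OHT in p53ER cells, and 0.26, 0.34 and 0.37 in uninfected cells. In all, 8 genes were lower in replicate 3 of every p53ER group and higher in replicate 3 of every uninfected group, and 0 had the opposite pattern. This was likewise not tested, and the share of all tested genes with either pattern is not given here.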

How the results depend on the processing

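Of 752 alternative values for the counts of calls and medians of the 44 genes, 714 stayed within 1.5 times the count or within 0.16 of the median (the SD between replicates) and 38 did not. This share is no measure of firmness, since many fits left out an array that the comparison did not use. The width of 0.16 also let medians of -0.049 in p53ER cells and 0.078 in uninfected cells, for 4-OHT against vehicle, count as staying. The median for p53ER vehicle against 0 h was -0.28 with the replicate block and without the 3 arrays lying apart. That setting called 1 gene between untreated cell types (Rrm2) and 1 with 4-OHT (Ccne1), where leaving out arrays gave 0 to 1. For replicate 3 over all groups, array weights called 16 genes, and leaving out arrays 3 to 9. For its difference between the cell types the counts were 5 with quantile normalization, 0 with a plain prior, 18 with array weights, 6 without the 3 arrays and 0 to 4 leaving out arrays. In p53ER cells they were 7 in the upper 40% of genes, 15 with array weights, 7 without the 3 arrays and 2 to 8 leaving out arrays, and in uninfected cells 23, 24 and 7 to 16 for the last 3 settings. The calls over all genes are not given here for most of these settings, so the counts are no result about the 44 genes alone. The cause was not tested.

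Of 1178 values for named genes, 1080 kept direction and call, 77 lost the call, 3 gained it and 18 reversed. Here too many fits left out an array that the comparison did not use. Without the 3 arrays, or without p53ER vehicle replicate 1 alone, 4-OHT against vehicle in p53ER cells reversed for Pola1 (-0.039), Ccne2 (-0.050), Atad2 (-0.16) and Hells (-0.18); with the replicate block as well these were -0.026, -0.084, -0.11 and -0.15. Leaving out other arrays gave up to 1.51, 0.67, 1.53 and 1.38. The difference of the 4-OHT change reversed for Pola1 (-0.073, and -0.060 with the block; up to 1.48 otherwise). Pola1 from 0 h to vehicle was 0.25 without p53ER vehicle replicate 1 and down to -1.35 otherwise. In uninfected cells the mean of all probe sets reversed Prim2 (-0.11) and Pola2 (0.24). The replicate block alone changed no call of the 44, which stayed at 0 in every comparison of groups; over all genes it raised the calls from 2 to 8 for 4-OHT against vehicle in p53ER cells, from 2 to 19 against 0 h and from 8 to 16 between the cell types with 4-OHT. Array weights raised them from 97 to 1033 for the replicate 3 difference between the cell types, and leaving out the 3 arrays to 315. With 3 arrays a group, changes as small as most of those given here lie within the spread of the arrays.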
